A study of Mus musculus with 9 samples.

Results

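The interferon regulatory factors (IRFs), a family of transcription factors, were examined in the T15 cell line. The members were taken by name and matched through their Ensembl identifiers to GENCODE M21 (GRCm38), which gave the 8 genes described here, Irf1 to Irf5 and Irf7 to Irf9, among 35288 listed. All 8 passed the filter on low counts and were tested. T15 comes from a murine Smarcb1-negative peripheral T-cell lymphoma (PTCL) model, so all groups share the loss of Smarcb1, a core subunit of the SWI/SNF chromatin remodelling complex. How Smarcb1 was lost in the animal behind the line was not given in the sources used here. Bulk RNA-seq was compared between 3 control libraries, 3 libraries of cells given the histone deacetylase inhibitor SAHA (vorinostat; 1 µM, 72 h) and 3 libraries of Smarcb1-RE cells. The last carried a lentiviral, doxycycline-inducible Smarcb1 cDNA in the plasmid pInd20, were selected with G418 and were induced with 0.5 µg/µl doxycycline for 72 h. Cells given vehicle and cells carrying an empty plasmid are both described in the labels, whereas the study's text speaks of untreated cells, and the sources used here did not give which of these the 3 control libraries were. Transduction, selection and doxycycline therefore cannot be told apart from Smarcb1 in the Smarcb1-RE libraries. Several stable clones were made, and whether these libraries hold 1 clone or more was not stated. The study describes the SAHA dose as strongly toxic to T15 cells and the replicates as biological.

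All IRFs share an N-terminal DNA-binding domain with a conserved set of tryptophans that recognises GAAA repeats, the core of the interferon-stimulated response element (ISRE). IRF3, IRF5 and IRF7 are activated by kinases downstream of nucleic acid sensors and Toll-like receptors and switch on interferon genes. IRF9 joins STAT proteins in the complex that carries the response to type I interferon, IRF1 is induced by interferon gamma, and IRF2 binds the same sites and often restrains IRF1. IRF4 and IRF8 are the lymphoid and myeloid members. They bind DNA weakly alone and act with partners such as PU.1, SpiB or BATF-JUN dimers. IRF4 is strongly induced through the T cell receptor and sustains activated T cells.

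The promoters of 4 members are shown because their transcripts were called in opposite directions under the treatments (Irf4 and Irf8), rose furthest (Irf7) or rose in SAHA beside Ifng (Irf1). Each is the stretch of the 250 bases before the RefSeq start (GRCm38.p6) that lies outside annotated exons, written 5′ to 3′ on the gene's strand. Capitals mark matches to the gamma-activated site (GAS) type motif TTCNNNGAA, which STAT dimers bind.
Irf1, chr11:53769764-53770013, plus strand: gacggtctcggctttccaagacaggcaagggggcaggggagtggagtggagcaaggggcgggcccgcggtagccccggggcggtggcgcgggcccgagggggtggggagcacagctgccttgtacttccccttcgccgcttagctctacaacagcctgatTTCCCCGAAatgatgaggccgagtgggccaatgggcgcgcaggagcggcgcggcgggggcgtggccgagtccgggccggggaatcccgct
Irf8, chr8:120736108-120736357, plus strand: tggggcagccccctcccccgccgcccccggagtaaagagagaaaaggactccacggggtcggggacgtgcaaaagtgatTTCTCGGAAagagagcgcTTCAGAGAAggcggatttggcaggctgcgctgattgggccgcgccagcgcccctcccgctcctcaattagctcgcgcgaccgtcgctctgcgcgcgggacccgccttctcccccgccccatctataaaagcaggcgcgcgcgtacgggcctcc
Irf7, chr7:141266482-141266674, minus strand: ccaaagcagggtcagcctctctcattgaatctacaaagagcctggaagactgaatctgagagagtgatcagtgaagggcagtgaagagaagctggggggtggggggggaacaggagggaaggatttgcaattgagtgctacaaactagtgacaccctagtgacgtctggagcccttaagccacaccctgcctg
Irf4, chr13:30748983-30749225, plus strand: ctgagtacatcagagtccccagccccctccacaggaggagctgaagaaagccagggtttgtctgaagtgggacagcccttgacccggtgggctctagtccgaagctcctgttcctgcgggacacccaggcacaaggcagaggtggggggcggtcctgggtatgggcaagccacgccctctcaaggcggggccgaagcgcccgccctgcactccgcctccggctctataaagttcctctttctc
The Irf1 window held TTCCCCGAA at 90 bases before the start, and the Irf8 window held TTCTCGGAA at 171 and TTCAGAGAA at 153 bases. The full 250-base windows of Irf7 and Irf4 held no match to any of the 4 motifs searched on both strands. Of 11 RefSeq windows for 8 Irf genes, 3 held the GAS-type motif, against 7.02% of all 32851 promoters of that length. The ISRE-type motif (GAAA, any 2 bases, GAAA) was found in 1 window, against 2.98% of promoters, and the ETS-IRF composite (GGAA, any 2 bases, GAAA) in 1, against 2.3%. Both of these lay in the Irf2 window and overlapped each other, 241 and 247 bases before the start, beside the GAS-type match TTCCGAGAA at 224 bases. The AP-1 site TGANTCA was in 0 of 11 windows, against 6.75% of promoters. These matches describe letters in the windows and not sites in use. Over the full 250 bases, the Irf1 and Irf8 windows printed above had a GC content of 71.2% and 67.2% with 25 and 29 CpG dinucleotides, and the Irf7 window had 54.4% and 3 CpG. Irf1 and Irf8 each have a second RefSeq start, whose windows had a GC content of 74.4% and 54% with 35 and 8 CpG and held no GAS-type match.

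Levels are given in CPM, the estimated count of a gene per 1000000 counts of its library after scaling by the trimmed mean of M values (TMM). Total counts ranged from 20900477 to 24941494 per library, and 3 counts corresponded to 0.123 to 0.133 CPM. Smarcb1 followed the labels, with 0.085 to 0.329 CPM in control, 0.129 to 0.575 CPM in SAHA and 6.12 to 6.51 CPM in Smarcb1-RE. T cell genes were over 1 CPM for 12 of 15 markers in each group, with Cd8a and Cd8b1 among them. The others were Cd4, listed at 0 in all 9 libraries, Cd2, at most 0.128 CPM, and Cd5, at most 0.0431 CPM. None of 10 macrophage and monocyte markers and none of 7 neutrophil markers was over 1 CPM in any group. Control replicate 1 stood further from the other control libraries than any other replicate pair (chi-square per gene 13.4 and 15, against at most 4.69 elsewhere). SAHA replicate 1 had the lowest level of its group for 7 of the 8 tested Irf genes.

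Under SAHA, every tested Irf gene was higher than in control, and Smarcb1 re-expression split the family. A gene was called when edgeR's quasi-likelihood test gave a Benjamini-Hochberg adjusted p under 0.05 over all 13697 genes tested. By this rule 8 of 8 Irf genes rose in SAHA and 0 fell, where 66.9% of all genes were called, 32.6% higher and 34.3% lower. In Smarcb1-RE, Irf1, Irf5, Irf7 and Irf9 rose, Irf4 and Irf8 fell, and Irf2 and Irf3 were not called, where 77.8% of all genes were called, 39.2% higher and 38.6% lower. The calls of Irf2 in SAHA and of Irf1 in Smarcb1-RE were lost in 10 and 15 of 19 alternative settings. Compared directly, Smarcb1-RE cells had more Irf7 and Irf9 and less Irf1, Irf4, Irf5 and Irf8 than SAHA cells, and Irf2 and Irf3 were not called, with 74.6% of all genes called, 37.7% higher and 36.8% lower. Most genes changed in each comparison, so sizes are given beside the calls. The absolute log2 fold change had a median of 0.90 over the 8 Irf genes in SAHA and 0.54 in Smarcb1-RE, against 0.37 and 0.53 over all genes tested. Changes of at least 1 on the log2 scale were found for Irf4, Irf5, Irf7 and Irf8 in SAHA, all upward, where 9.85% of all genes were called at that size and rose. In Smarcb1-RE they were found for Irf5 and Irf7 upward, against 16.9% of all genes, and for Irf8 downward, against 6.78%. Between the treatments, Irf4, Irf5 and Irf8 were lower in Smarcb1-RE by that much, against 8.21% of all genes, and 0 Irf genes were higher by that much, against 11.5%.

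**Figure D1:**
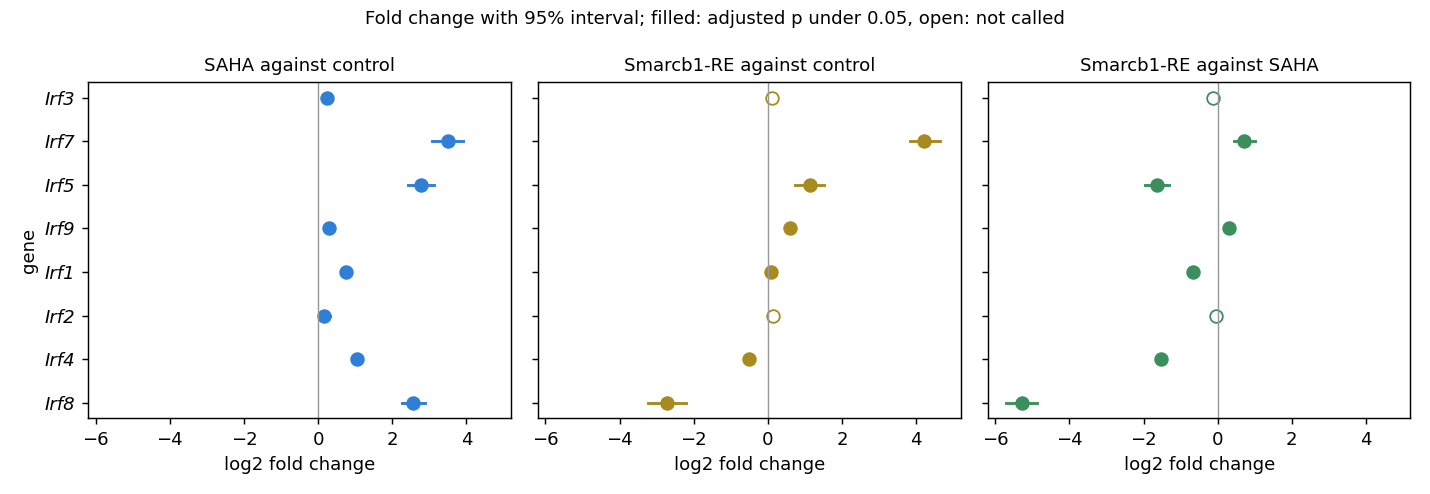
Log2 fold change of the 8 tested Irf genes (rows) in the 3 comparisons (panels), with 95% intervals, from edgeR's fit of all 9 libraries. Filled points passed an adjusted p of 0.05 and open points did not. All points lie right of 0 in SAHA, whereas in Smarcb1-RE Irf7 lies at 4.22 and Irf8 at -2.73.

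Of the members that switch on interferon genes, Irf7 changed most and Irf3 hardly at all. Irf7 (ENSMUSG00000025498, chromosome 7, 141262706 to 141266481, minus strand) encodes the inducible factor that amplifies type I interferon production. Its level was 1.79, 1.94 and 1.19 CPM in control replicates 1 to 3, 13.9, 20.6 and 21.4 CPM in SAHA and 29.9, 31.8 and 30.2 CPM in Smarcb1-RE. The 3 groups did not overlap: control was low, SAHA intermediate with replicate 1 the lowest, and Smarcb1-RE high and tight. Libraries of the groups compared did not overlap for 68.7% of all genes in SAHA, 79.5% in Smarcb1-RE and 80% between the treatments. The rise was 11.3-fold in SAHA (log2 fold change 3.50, SE 0.19) and 18.7-fold in Smarcb1-RE (4.22, SE 0.19), with edgeR adjusted p = 1.38e-08 and 5.59e-10. The direct difference was 1.65-fold, higher in Smarcb1-RE (log2 fold change 0.72, SE 0.13, edgeR adjusted p = 0.000261), and 0.53 without SAHA replicate 1. Irf7 shares 45 exon bases with Phrf1 on the opposite strand, and strand use in the counting was not stated. Phrf1 differed by 0.11 on the log2 scale in SAHA (adjusted p = 0.0558, edgeR) and fell by 0.63 in Smarcb1-RE. Its part in the Irf7 counts was not tested.

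Irf5 (ENSMUSG00000029771, chromosome 6, 29526625 to 29541871, plus strand), which acts below Toll-like receptors and MyD88, was rare in control, with 30, 24 and 28 counts or 1.28, 1.01 and 1.15 CPM. It reached 6.67, 8.04 and 8.87 CPM in SAHA and 2.69, 2.39 and 2.46 CPM in Smarcb1-RE, again with no overlap between groups. Thus Irf5 rose under both treatments as Irf7 did, but in the other order of size. It was 6.83-fold higher in SAHA (log2 fold change 2.77, SE 0.16, edgeR adjusted p = 2.36e-08), 2.18-fold higher in Smarcb1-RE (1.13, SE 0.18, adjusted p = 7.85e-05), and 3.12-fold lower in Smarcb1-RE than in SAHA (log2 fold change -1.64, SE 0.15, adjusted p = 4.96e-07). Its exons overlap those of Tnpo3 on the opposite strand by 411 bases. Tnpo3 differed by -0.01 on the log2 scale in SAHA (edgeR adjusted p = 0.89) and fell by 0.37 in Smarcb1-RE.

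Irf3 (ENSMUSG00000003184, chromosome 7, 44997648 to 45002848, plus strand), the constitutive factor that TBK1 activates, stood at 59.6, 49.2 and 53.5 CPM in control, 62.4, 66.3 and 61.7 CPM in SAHA and 58.7, 58.3 and 57.2 CPM in Smarcb1-RE. The SAHA libraries lay just above all control libraries, and the Smarcb1-RE libraries fell inside the control range. Irf3 rose by 0.23 on the log2 scale in SAHA (SE 0.06, edgeR adjusted p = 0.00502). In Smarcb1-RE the difference was 0.10 (95% interval -0.03 to 0.23, edgeR adjusted p = 0.148), and leaving out a control library moved it both ways, to 0.17 without replicate 1, where it passed (adjusted p = 0.00582), and to 0.02 without replicate 2 (adjusted p = 0.714). Against SAHA, Irf3 was lower in Smarcb1-RE by 0.13 on the log2 scale and not called (edgeR adjusted p = 0.0728), but it passed without control replicate 1 or 2 (adjusted p = 0.0111 and 0.0217). Irf3 shares 88 exon bases with Bcl2l12 on the opposite strand, and Bcl2l12 was called in neither comparison (log2 fold changes -0.20 and 0.09, edgeR adjusted p = 0.0722 and 0.381).

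Irf9 (ENSMUSG00000002325, chromosome 14, 55603571 to 55610030, plus strand), the DNA-binding subunit of the complex that carries the type I interferon response, rose modestly and in the same order of groups as Irf7. Its level was 65.7, 67.8 and 70.3 CPM in control, 80, 82.9 and 86.4 CPM in SAHA and 103, 101 and 101 CPM in Smarcb1-RE, with no overlap. The log2 fold changes were 0.29 (SE 0.04, edgeR adjusted p = 6.37e-05) and 0.59 (SE 0.04, adjusted p = 5.48e-08), and Smarcb1-RE exceeded SAHA by 0.30 (SE 0.04, adjusted p = 3.53e-05). Irf9 shares 123 exon bases with Rnf31 on the same strand, so reads there may have been split between both genes. Rnf31 rose by 0.91 in SAHA and by 0.26 in Smarcb1-RE on the log2 scale (edgeR adjusted p = 2.97e-08 and 0.00108). Its part in the Irf9 counts was not tested. Stat2, the partner of Irf9, rose from 53.7 CPM in control to 169 CPM in SAHA and 85.6 CPM in Smarcb1-RE (log2 fold changes 1.65 and 0.67).

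**Figure D2:**
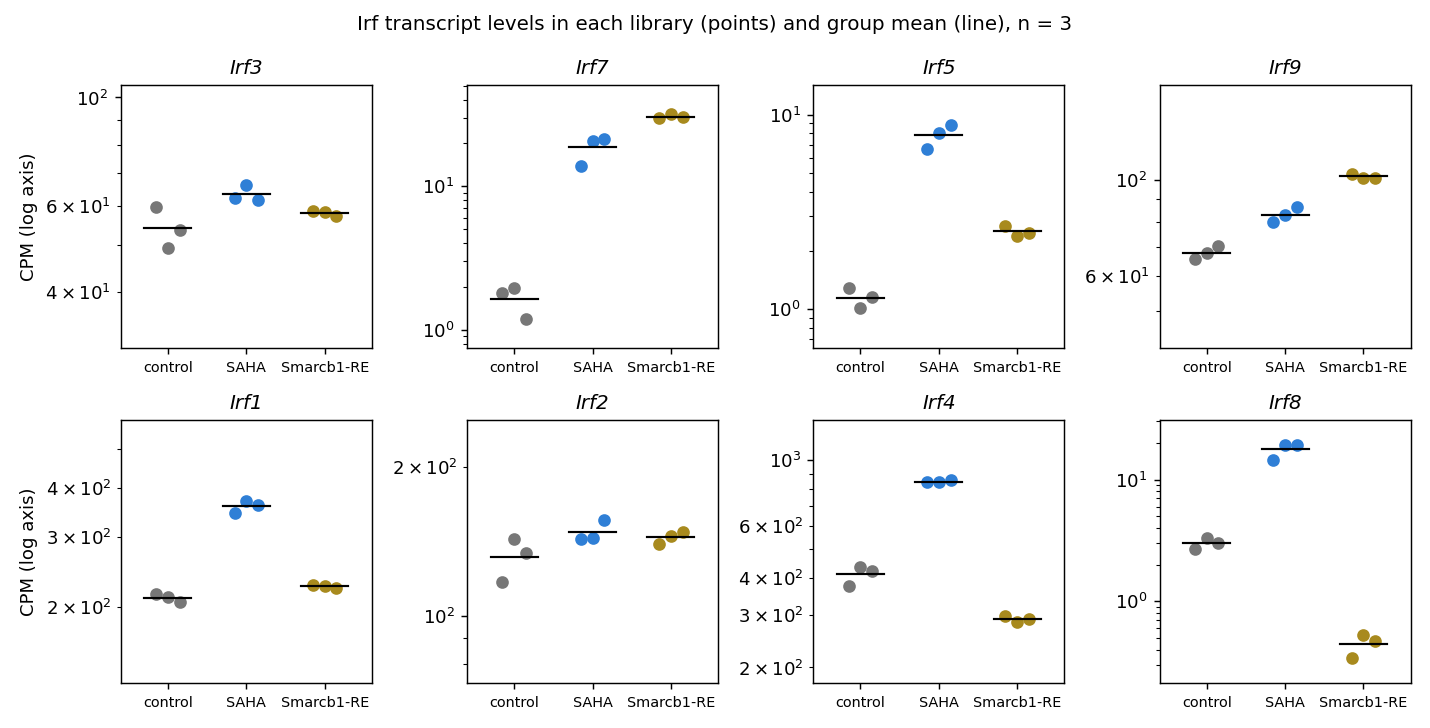
CPM of each tested Irf gene on a log axis, with its own scale per panel, for the 3 libraries of each group (points, n = 3) and their mean (line). Irf7 climbs from control over SAHA to Smarcb1-RE, Irf5 and Irf1 peak in SAHA, and Irf4 and Irf8 lie above control in SAHA and below it in Smarcb1-RE.

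Irf1 (ENSMUSG00000018899, chromosome 11, 53770014 to 53778374, plus strand) rose with SAHA and stayed close to control with Smarcb1 re-expression. Its level was 216, 212 and 206 CPM in control, 345, 371 and 361 CPM in SAHA and 227, 226 and 224 CPM in Smarcb1-RE. The SAHA libraries stood well above the rest, and the Smarcb1-RE libraries lay narrowly above control. The change was 1.7-fold in SAHA (log2 fold change 0.76, SE 0.04, edgeR adjusted p = 8.22e-09). In Smarcb1-RE it was 1.07-fold (0.09, SE 0.04, adjusted p = 0.0424), a call that was lost in 15 of 19 alternative settings. Over all 19, the edgeR or DESeq2 adjusted p ranged from 5.17e-05 to 0.228. Leaving out any 1 library other than control replicate 1 was enough to lose it (log2 fold change 0.06 to 0.10). Irf1 shares 135 exon bases with Gm17334 on the opposite strand, which fell in SAHA (log2 fold change -2.19, edgeR adjusted p = 0.00333). The part of Gm17334 in the Irf1 counts was not tested. Ifng, whose product induces Irf1, peaked in SAHA as Irf1 did, with 175 CPM against 23.4 CPM in control and 25.1 CPM in Smarcb1-RE. Irf4, Irf5 and Irf8 were also highest in SAHA, and whether Ifng had a part in the rise of Irf1 was not tested.

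Irf2 (ENSMUSG00000031627, chromosome 8, 46739732 to 46847458, plus strand) changed little. It was measured at 117, 143 and 134 CPM in control, 143, 144 and 156 CPM in SAHA and 140, 145 and 148 CPM in Smarcb1-RE. Control replicate 1 was the low library, and the remaining libraries of all groups lay close together. The log2 fold change was 0.17 in SAHA (95% interval 0.03 to 0.31, edgeR adjusted p = 0.0334) and 0.09 without control replicate 1 (adjusted p = 0.0945). It was also lost without any 1 SAHA library (adjusted p = 0.0503, 0.0571 and 0.145) and without Smarcb1-RE replicate 1 or 2 (0.0545 and 0.0503). In Smarcb1-RE it was 0.14 (95% interval -0.01 to 0.28, edgeR adjusted p = 0.0732), with 0.05 without control replicate 1 (adjusted p = 0.318) and 0.18 without control replicate 2, where it passed (adjusted p = 0.0237).

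To set Irf1 against Irf2, levels were divided by the summed exon length of each gene, as CPM per kilobase. The ratio of Irf1 to Irf2 was 3.45, 2.76 and 2.85 in control, 4.49, 4.79 and 4.29 under SAHA and 3.01, 2.9 and 2.83 after re-expression. All SAHA ratios exceeded all control ratios, and the Smarcb1-RE ratios fell within the control range. A two-sided exact permutation test gave p = 0.1 for SAHA, the smallest value that 3 against 3 libraries allow, and p = 0.9 for Smarcb1-RE (0.133 and 0.9 after Benjamini-Hochberg adjustment over 4 comparisons).

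The lymphoid and myeloid members Irf4 and Irf8 each rose in SAHA and fell in Smarcb1-RE. Irf8 (ENSMUSG00000041515, chromosome 8, 120736358 to 120756694, plus strand), which directs monocyte and dendritic cell development, had 63, 78 and 73 counts in control, 334, 439 and 447 under SAHA and 8, 12 and 11 after re-expression. In CPM these were 2.68, 3.3 and 3 in control, 14.5, 19.4 and 19.3 under SAHA and 0.341, 0.531 and 0.474 after re-expression. The groups were wholly separate, and the Smarcb1-RE libraries, though few in reads, stood above the 3-count floor. Irf8 rose 5.91-fold in SAHA (log2 fold change 2.56, SE 0.14, edgeR adjusted p = 1.27e-08) and was 6.61-fold lower in Smarcb1-RE than in control (-2.73, SE 0.23, adjusted p = 2.45e-07). Between the treatments the difference was 39.1-fold (log2 fold change -5.29, SE 0.19, edgeR adjusted p = 1.17e-10), the largest of the family in any comparison. It shares no exon base with another annotated gene.

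Irf4 (ENSMUSG00000021356, chromosome 13, 30749226 to 30766976, plus strand) was the most abundant member, at 375, 437 and 424 CPM in control, 840, 842 and 854 CPM in SAHA and 297, 284 and 291 CPM in Smarcb1-RE. SAHA libraries were high and nearly equal, and all Smarcb1-RE libraries lay below the lowest control, replicate 1. Irf4 rose 2.05-fold in SAHA (log2 fold change 1.04, SE 0.05, edgeR adjusted p = 7.04e-09) and was 1.42-fold lower in Smarcb1-RE (-0.50, SE 0.05, adjusted p = 1.55e-06). Smarcb1-RE cells had 2.91-fold less than SAHA cells (log2 fold change -1.54, SE 0.05, adjusted p = 7.53e-11). The ratio of Irf4 to Irf8 per kilobase, at 202, 191 and 203 in control, was 83.6, 62.5 and 63.9 under SAHA and 1250, 771 and 883 after re-expression. Each treatment was separate from control, in opposite directions, with p = 0.1 by two-sided exact permutation, the smallest value possible (adjusted p = 0.133 over 4 comparisons).

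Markers of cells that normally use Irf8 were read beside it. The macrophage and monocyte list summed to 0.617 to 0.68 CPM in control, at most 0.129 CPM in SAHA and 0.177 to 0.384 CPM in Smarcb1-RE, with Fcgr1, C1qa and C1qb at 0 throughout and no marker over 1 CPM. Of 7 dendritic cell markers, Bst2 was over 1 CPM in control and Bst2 and Zbtb46 in both treatments, with sums of 83.3 to 92.4, 115 to 128 and 77.3 to 81.4 CPM in control, SAHA and Smarcb1-RE and Clec9a at 0 throughout. Of 8 B cell markers, Ebf1 was over 1 CPM in control and SAHA and Ebf1, Ms4a1 and Pax5 in Smarcb1-RE, with sums of 92.9 to 95.9, 101 to 112 and 155 to 163 CPM. The stromal list, with Pdgfra and Pecam1 over 1 CPM, summed to 155 to 161, 113 to 128 and 195 to 199 CPM. The dendritic cell, B cell and stromal sums moved with the groups, and their part in the Irf results was not tested. In control these sums came mostly from Bst2 (86 CPM), Ebf1 (92.8 CPM) and Pecam1 (150 CPM). In Smarcb1-RE, Pecam1 and Bst2 were lower, at 130 and 77 CPM, and Ebf1 was higher, at 152 CPM. Pdgfra went from 7.57 CPM in control to 67.1 CPM there, and Zbtb46 from 0.267 to 1.16 CPM. Bst2 is also in the list of targets of the IRF9-containing complex. In bulk RNA, fewer cells of a type and less RNA per cell cannot be told apart.

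Per kilobase of exon, the order in control was Irf4 (84 CPM per kilobase), Irf1 (53.2), Irf2 (17.8), Irf3 (15.7), Irf9 (12.6), Irf7 (0.435), Irf8 (0.424) and Irf5 (0.395). Here Irf2 and Irf3 overlapped between libraries, as did Irf7 with Irf8 and Irf8 with Irf5. In SAHA the order of the leading 6 was the same, and Irf2 overlapped Irf3 as Irf5 (2.71) did Irf8 (2.51). In Smarcb1-RE, Irf4 (59.3) and Irf1 (56.8) came close without overlapping, Irf9 (18.9) moved up to overlap Irf2 (19.5) and pass Irf3 (16.9), and Irf7 (8.12) stood well above Irf5 (0.865) and Irf8 (0.0636). The summed level of the family was 185 ± 6.41 CPM per kilobase in control, 327 ± 7.1 in SAHA and 181 ± 1.21 in Smarcb1-RE (SD, n = 3). The Smarcb1-RE sum lay inside the control range of 178 to 190 on this TMM scale but not with library totals only, a scaling tried after the data had been seen, which put it at 194 ± 0.423 against 178 ± 7.61 for control (169 to 183) and 315 ± 6.7 for SAHA. Shares of the sum do not depend on the scaling. The share of Irf4 in the sum was 45.5% ± 2.07 in control, 52.8% ± 0.907 in SAHA and 32.9% ± 0.51 in Smarcb1-RE. The share of Irf9 was 6.84% ± 0.201, 4.72% ± 0.1 and 10.5% ± 0.0632 in the same order, and that of Irf7 was 0.236% ± 0.0572, 1.5% ± 0.306 and 4.5% ± 0.174. These shares did not overlap between groups for Irf4, Irf7 or Irf9, and are descriptions with no test.

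**Figure D3:**
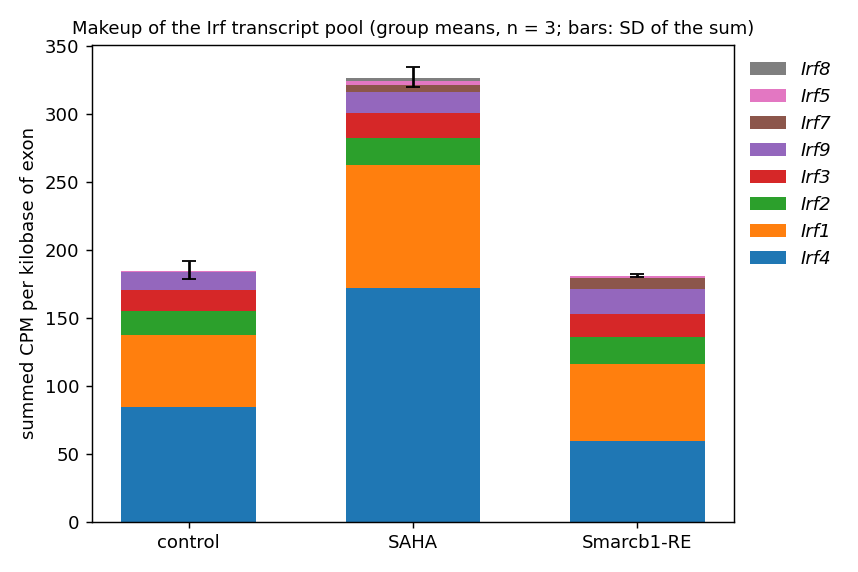
Summed level of the Irf genes in CPM per kilobase of exon, stacked by gene from group means (n = 3 libraries), with the SD of the sum as bars. The SAHA column reaches 327 against 185 in control, and the Smarcb1-RE column, at 181, holds less Irf4 and more Irf7 and Irf9.

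The genes around the IRFs were described by lists. In the list of 23 sensors, adaptors and kinases that activate IRFs, 19 were tested, 6 rose and 5 fell in SAHA (median log2 fold change 0.04, or 0.02 without Tlr4, against 0 over all genes), and 9 rose and 8 fell in Smarcb1-RE (0.08, against 0.01). Of all genes, 32.6% rose and 34.3% fell in SAHA, and 39.2% rose and 38.6% fell in Smarcb1-RE. Tlr3, a sensor of double-stranded RNA, rose 2.69-fold in SAHA, from 3.52 to 9.49 CPM (log2 fold change 1.43, SE 0.13), and Ddx58, which encodes the RNA helicase RIG-I, rose by 0.92 on the log2 scale. Irak4 and Irak1, the kinases below MyD88, fell by 0.90 and 0.52 in SAHA. In Smarcb1-RE, Tlr4, the receptor for bacterial lipopolysaccharide, reached 2.79 to 3.28 CPM, where control (0 to 0.128 CPM) and SAHA (0.0442 to 0.129 CPM) were at the floor. The adaptor Ticam2 rose by 1.80, while Myd88 and Mavs, adaptors of the Toll-like and RIG-I-like receptors, fell by 0.90 and 0.41. Every call named here and in the following lists was at an edgeR adjusted p of 0.05 or less.

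Of 19 interferon ligands, only Ifng had enough counts to be tested. Its level rose in SAHA by 2.90 on the log2 scale (SE 0.06, edgeR adjusted p = 5.37e-11) and differed by 0.10 in Smarcb1-RE (adjusted p = 0.199), where without control replicate 1 it was called higher. Ifnb1 was at 0 in all 9 libraries, and Ifnz, the highest of the untested ligands, was between 0.0411 and 0.431 CPM. Of 12 receptors, Janus kinases and STATs, 7 rose and 1 fell in SAHA (median 0.23), against 32.6% and 34.3% of all genes, led by Stat2 and Ifnlr1, the receptor chain for type III interferon (1.47, SE 0.18), and Il10rb, its partner chain, fell by 0.38. In Smarcb1-RE 6 rose and 3 fell (median 0.15), against 39.2% and 38.6%, with Stat2 and Ifnlr1 (0.61, SE 0.19) higher and Ifngr2, a chain of the interferon gamma receptor, lower (log2 fold change -0.45, SE 0.10). Against SAHA, 5 were higher and 7 lower in Smarcb1-RE (median -0.41), where 37.7% and 36.8% of all genes were.

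Of 16 brakes on interferon and IRF signalling, 5 were higher and 9 lower in SAHA (median -0.24), where 32.6% of all genes were higher and 34.3% lower, and 3 were higher and 8 lower in Smarcb1-RE (median -0.18), against 39.2% and 38.6%. Usp18, which blocks the type I interferon receptor and is itself induced by interferon, rose by 2.41 (SE 0.28) and 2.43 (SE 0.28). Socs3, an inhibitor of cytokine receptors, rose by 1.79 in SAHA, while the phosphatase gene Ptpn6 and the LUBAC subunit gene Rbck1 fell by 0.80 and 0.69. In Smarcb1-RE the deubiquitinase gene Cyld rose by 0.56, and Socs1, an inhibitor of Janus kinases, fell by 1.24. In a list of 19 genes, mostly DNA-binding partners of IRF4 and IRF8, 15 were tested. Of these, 6 rose and 3 fell in SAHA (median 0.13), against 32.6% and 34.3% of all genes. In Smarcb1-RE 7 rose and 6 fell (median 0.09), against 39.2% and 38.6% of all genes. The 6 became 3 without Smarcb1-RE replicate 3 and 3 with library totals only. Spi1, which encodes PU.1, was at most 0.0443 CPM in any library. In SAHA, Id2, whose product does not bind DNA itself, and Ikzf3 rose by 0.55 and 0.50, and Nfatc2 and Ikzf1 fell by 1.15 and 0.52. In Smarcb1-RE, Bcl6, the repressor that marks follicular helper T and germinal centre B cells, and Nfatc1 rose by 1.17 and 1.01, and Cebpa and Junb fell by 0.66 and 0.49.

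Most targets of the IRF9-containing complex were called higher in each comparison with control, and 4 in SAHA and 3 in Smarcb1-RE were not called. Of 26, 24 were tested, and 18 rose and 2 fell in SAHA, where 32.6% of all genes rose, with a median log2 fold change of 1.03 (0.84 when Ifi44, at the floor in both groups, was left out). In Smarcb1-RE 20 rose and 1 fell, where 39.2% of all genes rose, with a median of 1.09. Among targets whose average log2 CPM was 0 or more, Mx1 and Mx2, antiviral GTPases, rose furthest in both, and Usp18 is also one of these targets. Mx1 went from 0.447 CPM in control to 3.07 and 5.93 CPM (log2 fold changes 2.77, SE 0.21, and 3.71, SE 0.20), and Mx2 from 0.183 (0.0411 to 0.296) to 3.69 and 3.81 CPM (4.30, SE 0.38, and 4.35, SE 0.38). Those that fell were Ifit2 and Dtx3l in SAHA, by 0.41 and 0.23, and Bst2 in Smarcb1-RE, by 0.16. Without Smarcb1-RE replicate 3, no target was called lower there, and without control replicate 1, 2 were. Compared directly, 12 of the 24 were higher and 7 lower in Smarcb1-RE than in SAHA (median 0.12, against 0.02 over all genes). Of all genes, 37.7% were higher and 36.8% lower in that comparison.

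The targets of IRF1 were more mixed. Of 24, 21 were tested, and 12 rose and 3 fell in SAHA (median 0.39), against 32.6% and 34.3% of all genes, while 10 rose and 9 fell in Smarcb1-RE (median 0.01), against 39.2% and 38.6%. Against SAHA, 13 were lower and 6 higher in Smarcb1-RE (median -0.37), where 36.8% of all genes were lower and 37.7% higher. Il15, a cytokine for memory T and natural killer cells, and Iigp1, an immunity-related GTPase, rose by 2.11 and 1.90 in SAHA, and Psmb10 and Psmb8, immunoproteasome subunits, fell by 1.73 and 0.30. Il15 was low throughout, at 0.213 to 0.254 CPM in control, 1.04 CPM in SAHA and 2.56 CPM in Smarcb1-RE (means for the treatments). In SAHA without control replicate 3, 5 were called lower. In Smarcb1-RE, Casp1, the inflammasome protease, went from 3.32 to 54.8 CPM (log2 fold change 4.04, SE 0.11) and Il15 rose by 3.40 (SE 0.25), whereas Irgm1, another immunity-related GTPase, and Psmb10 fell by 1.13 and 1.02. Casp1 was at 3.03 CPM in SAHA and not called there. The part of Irf1 in the changes of these targets was not tested.

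**Figure D4:**
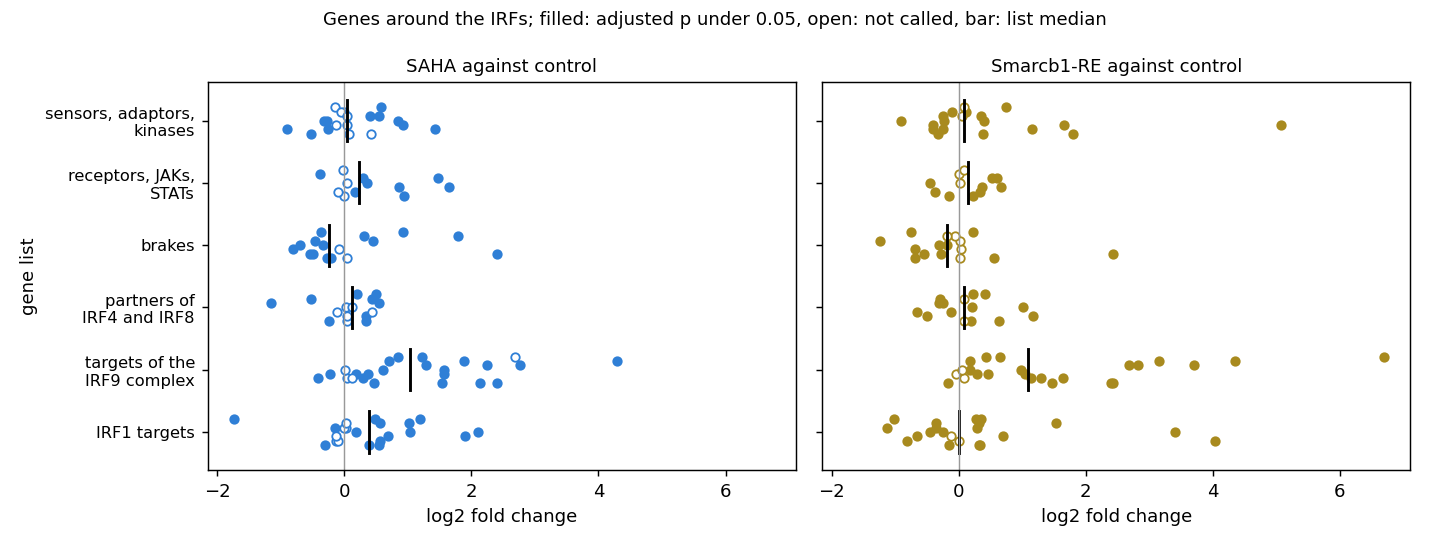
Log2 fold change of each tested gene in 6 lists around the IRFs, in SAHA (left) and Smarcb1-RE (right) against control. Filled points passed an adjusted p of 0.05, open points did not, and bars mark list medians. The targets of the IRF9-containing complex sit furthest right, with medians of 1.03 and 1.09, and the rightmost point, Ifi44, had 0 counts in control, so its fitted position depends on the prior count.

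For each member that changed by at least 1 on the log2 scale, the 3 protein-coding genes (average log2 CPM at least 1) with the nearest pair of log2 fold changes against control, by Euclidean distance over both comparisons, were named. The patterns of Irf4 and Irf5 had close company. Elovl5, Tpst2 and Spty2d1 lay within 0.08 of Irf4, with Elovl5 at 1.06 in SAHA and -0.57 in Smarcb1-RE, and Nectin2 (2.81 and 1.14) lay 0.04 from Irf5, followed by Iffo2 and Rhpn2. Those of Irf7 and Irf8 were sparser. The nearest to Irf7 were Pkhd1l1 at a distance of 0.8, Mx1 at 0.9 and Celf5 at 1.11. The nearest to Irf8 were Tubb2b at 0.49 (2.71 and -2.25), H1fx at 0.96 and Lrrc63 at 1.29. Both comparisons use the same control libraries, and the distance is a description over 9 libraries.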

How the data were processed

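RNA from T15 control, SAHA-treated and Smarcb1-RE cells (3 libraries each) went through a directional library kit and single-end sequencing. The table that the authors deposited holds estimated counts of each library by Ensembl gene, without normalization, and 52.4% of its values above 0 were not whole. The submitters' processing notes name Salmon 0.14.1, DESeq2 1.22.2, FastQC 0.11.8, MultiQC 1.7 and GRCm38, with no parameters. A transcript quantifier divides reads between overlapping genes by estimate, which bears on Irf1, Irf3, Irf5, Irf7 and Irf9.

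Here the counts were rounded, filtered with filterByExpr (minimum count 10), scaled by TMM and fitted with edgeR 4.0.16 (limma 3.58.1, R 4.3.3) as 3 groups in 1 quasi-likelihood fit. Benjamini-Hochberg adjustment ran over all 13697 genes tested, with calls at an adjusted p under 0.05. The biological coefficient of variation was 5.24%. SE values are the log2 fold change over the square root of F, and intervals are 95%. Of 35288 identifiers, 35099 (99.5%) matched GENCODE M21. Promoters are from RefSeq (GRCm38.p6). The script was tested on simulated data. DESeq2 1.42.0, other scalings and filters, separate fits, thinning, stricter calls, a replicate block and each left-out library were tried as alternatives. Summing the Irf levels with library totals only was added after the data had been seen.

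The members, lists and comparisons were chosen with earlier results of these data known, among them the levels of Irf7 and Irf8. All 8 tested Irf genes were named. From each list and comparison with control, up to 2 called genes with the largest rise and 2 with the largest fall, at an average log2 CPM of at least 0, were named, with Smarcb1, Ifng, Stat2 and Spi1 always. Some genes that this rule takes are not reported here. Ifi44, Ifnb1 and Ifnz were named after their values were seen. Same-numbered libraries did not deviate together (9 pairs, r from -0.0717 to 0.0366), so the numbers were not taken to pair samples. No replicate pair was identical.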

Additional observations from a re-analysis of the deposited data

Results flagged for a closer look

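Irf4 and Irf8 were flagged because SAHA and Smarcb1 re-expression moved each in opposite directions from the same control libraries, each change passing the test. Of all genes, 32.6% were called higher in SAHA and 38.6% lower in Smarcb1-RE. How many genes met these calls together was not counted. The direct comparison of Smarcb1-RE with SAHA gave log2 fold changes of -1.54 for Irf4 and -5.29 for Irf8 (edgeR adjusted p = 7.53e-11 and 1.17e-10). All 3 SAHA libraries lay above every control library and all 3 Smarcb1-RE libraries below every control library for both genes. Libraries did not overlap with control for 68.7% of all genes in SAHA and 79.5% in Smarcb1-RE. The levels of Irf8 were known when the genes were chosen, so its adjusted p is not independent support. The cause was not tested.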

How the results depend on the processing

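Over the comparisons of the 8 tested Irf genes and all alternatives, 407 values kept their direction and side of the threshold, 33 lost the call, 10 gained it and 3 changed sign. The sign changes were Irf2 in Smarcb1-RE against SAHA (0.12 with library totals only, 0.00 without SAHA replicate 3, and -0.07 to 0.00 over all left-out libraries) and Irf3 there (0.03 with library totals only), none of them called. Library totals moved the median of all genes in Smarcb1-RE from 0.01 to 0.17 against control and from 0.02 to 0.18 against SAHA, and Irf2 and Irf3 were then called against control (0.29 and 0.26). Requiring at least 10 counts in every library dropped Irf8 from the test and left 1 Irf gene lower in Smarcb1-RE, with Irf2 and Irf3 called (0.19 and 0.16). Requiring an absolute log2 fold change of at least 1 left 1671, 3237 and 2706 genes called in SAHA, in Smarcb1-RE and between them, in place of 9164, 10653 and 10212. The Irf genes were then 4 higher in SAHA, 2 higher and 1 lower in Smarcb1-RE, and 0 higher between them, with Irf7 at 0.72 below that size. Leaving out 1 library gave 8379 to 9443, 10216 to 10862 and 9703 to 10758 genes called, 7 to 8 Irf genes higher in SAHA and 3 to 5 in Smarcb1-RE. Irf7 ranged from 3.31 to 3.67, 4.02 to 4.35 and 0.53 to 0.82, and Irf8 from 2.49 to 2.69, -2.86 to -2.57 and -5.43 to -5.13. With the replicate block, 9030, 10588 and 10137 genes were called, and in Smarcb1-RE Irf1 lost its call (0.09, edgeR adjusted p = 0.0646) and Irf2 gained it (0.14, 0.0391). At these depths Ifnb1 and most interferon ligands were too low to compare.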
